A study of Mus musculus with 4 samples.

Results

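Pi16/Dpp4 adventitial adipose progenitors were examined in the stromal vascular fraction of mouse inguinal fat after 24 h of cold. A cell was counted as one of them if it had at least 10 UMIs of Dcn, Col1a2 and Pdgfra together per 10000 of its UMIs (unique molecular identifiers, each standing for 1 captured transcript), no UMI of Ptprc, Epcam or Pecam1, at least 2 UMIs of Pi16 and Dpp4 together and fewer than 3 UMIs of Cxcl13. Cells had to hold at least 500 genes and under 15% mitochondrial UMIs. This gave 1197 cells of 15721 kept cells, or 7.61%, and of 2486 stromal cells, meaning cells past the Dcn, Col1a2 and Pdgfra threshold with Ptprc, Epcam and Pecam1 at 0, or 48.1%. The counts of these same cells chose them, so the 9 genes of the rule are described here with no test result.

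Libraries were made with droplet 3′ single-cell RNA sequencing from C57BL/6 mice aged 8 weeks, with the mature adipocytes left behind when the fraction was prepared. The 2 cold libraries came from mice kept at 4 °C for 24 h, and the 2 room-temperature libraries from mice kept at room temperature for the same time. No transgene, deletion or drug is named for either group; neither room degrees, nor sex, nor how many animals went into each library is stated by the labels. With 2 libraries a group and nothing that ties them to separate animals, each p-value below measures the spread between these libraries, which may be technical.

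Fat depots hold fibroblast-like progenitors in several states. Cells marked by Pi16 (a secreted peptidase inhibitor) and Dpp4 (a cell-surface dipeptidyl peptidase) lie in the connective tissue around vessels and between lobules of fat, and in mouse inguinal fat they are placed upstream of Icam1+ committed preadipocytes. They make much of the extracellular matrix of the tissue, and in cold the depot is known to recruit thermogenic adipocytes.

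The cold libraries gave 167 and 200 Pi16/Dpp4 cells with 1370699 and 1370906 UMIs in all, against 686 and 144 cells with 5952438 and 1476180 UMIs at room temperature. Median UMIs per cell were 9048 and 7492.5 in cold and 9300.5 and 11414 at room temperature, and median mitochondrial shares were 1.96% and 2.02% in cold and 2.39% and 2.77% at room temperature. Room-temperature replicate 1 therefore supplied more of these cells than the other 3 libraries together. No barcode of a Pi16/Dpp4 cell occurred in 2 libraries; whole libraries shared 5 to 10 barcodes a pair.

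The limit on Cxcl13, a B-cell-attracting chemokine, removed cells that otherwise met the rule, and it removed more of them in cold. Of stromal cells with at least 2 UMIs of Pi16 and Dpp4, 65.5% and 36.9% had 3 or more Cxcl13 UMIs in cold, against 24.9% and 19.1% at room temperature (695 of 1892 cells in all). Both cold libraries stood above both room-temperature libraries. Some genes the rule did not use were at near levels in both: Anxa3, a calcium-dependent phospholipid-binding protein, had 1685 CPM (UMIs of the gene per 1000000 UMIs of the cells summed, here pooled over libraries) in Pi16/Dpp4 cells and 1627 CPM in all stromal cells with 3 or more Cxcl13 UMIs. Clec3b, a secreted plasminogen-binding protein, had 2409 CPM in Pi16/Dpp4 cells and 2519 CPM in those cells. Others were higher in Pi16/Dpp4 cells in every library, such as Mfap5, with 2129 CPM in Pi16/Dpp4 cells and 1511 CPM in those cells, and Wnt2, with 171 and 111 CPM. Col3a1, a fibrillar collagen, had 1963 and 3043 CPM in Pi16/Dpp4 cells in cold and 9819 and 12931 CPM at room temperature; in the cells with 3 or more Cxcl13 UMIs it had 1143 and 2499 CPM in cold and 8554 and 8177 CPM at room temperature, lower in each library.

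**Figure D1:**
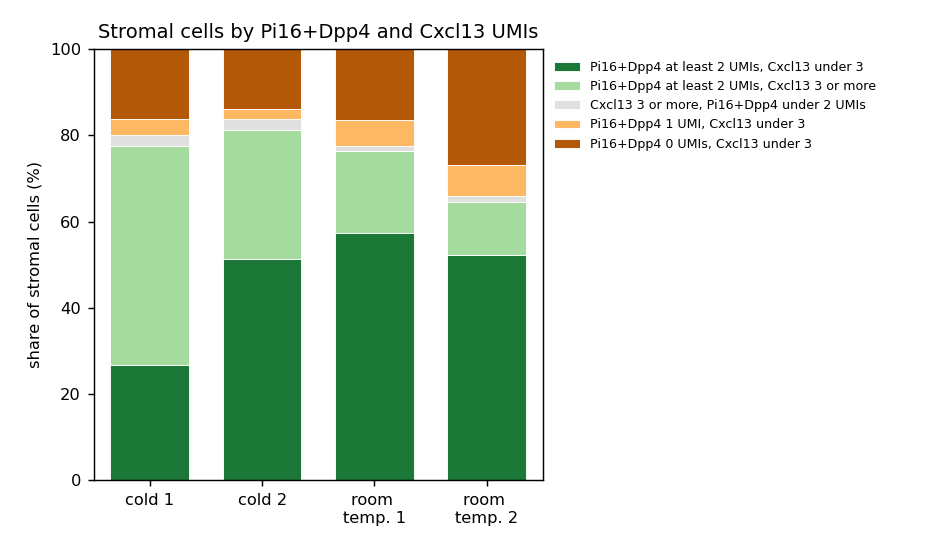
Stromal cells of each library, in percent, divided by UMIs of Pi16 and Dpp4 together and by UMIs of Cxcl13. The dark green segment at the base is the Pi16/Dpp4 population, from 26.7% in cold replicate 1 to 57.4% in room-temperature replicate 1, and the light green segment is the cells that only the Cxcl13 limit removed.

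As a share of stromal cells, Pi16/Dpp4 cells made up 26.7% (95% exact binomial interval 23.3 to 30.4) and 51.3% (46.2 to 56.3) in cold, against 57.4% (54.5 to 60.2) and 52.2% (46.1 to 58.2) at room temperature. The intervals cover counting error only. The means were 39.0 ± 17.4% in cold and 54.8 ± 3.70% at room temperature (SD, n = 2 each), a difference of -15.8 percentage points with a two-sided exact permutation p of 0.333, the smallest that 2 against 2 libraries allow. Without the Cxcl13 limit the shares were 77.4% and 81.3% in cold and 76.4% and 64.5% at room temperature, a difference of 8.91 points in the other direction (exact permutation p = 0.333). Cold replicate 1 carried most of the deficit: without it the difference was -3.51 points. Of all kept cells the shares were 4.11% and 6.57% in cold and 12.5% and 4.58% at room temperature, and these overlapped (difference -3.22 points, exact permutation p = 0.667); without room-temperature replicate 1 this difference was 0.76 points. Immune and epithelial cells are part of that denominator, and C1qa-positive cells (at least 2 UMIs) were 12.2% and 9.85% of kept cells in cold and 25.3% and 22.6% at room temperature, so a share of kept cells moves with them too.

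The label of the population was held against markers the rule did not use. Igfbp6, an insulin-like growth factor binding protein, had a UMI in 96.4% and 99.0% of Pi16/Dpp4 cells in cold and 98.8% and 97.9% at room temperature. In immune cells, which should lack it, the share was 5.98% and 4.18% in cold and 10.5% and 6.64% at room temperature, at median depths of 5379 and 7059 UMIs in cold and 5482 and 7301 UMIs at room temperature. Cells of at least 3000 UMIs were also thinned to 3000 UMIs, and shallower ones left out. The shares were then 98.5% and 98.8% in cold and 99.3% and 99.2% at room temperature in Pi16/Dpp4 cells. In immune cells they were 1.45% to 4.17%. Clec3b was seen in 97.8% to 99.5% of Pi16/Dpp4 cells of a library and in 2.28% to 9.15% of immune cells. Mfap5, a microfibril protein of elastic fibres, was seen in 91.0% to 96.2% of Pi16/Dpp4 cells and in 2.58% to 7.59% of immune cells. All 3 were also seen in other stromal cells. In other stromal cells (no UMI of Pi16 or Dpp4) Igfbp6 was seen in 72.3% and 75.9% in cold. At room temperature it was seen in 70.4% and 55.4% of them. Clec3b was seen in 50% to 66.7% of them and Mfap5 in 59.5% to 66.8%. These cells were shallower, with median UMIs of 3793 and 6002 in cold and 5833 and 5566 at room temperature. Thinned to 3000 UMIs, their shares in cold were higher, in 56 and 38 cells. They were 91.1% and 81.6% for Igfbp6, 76.8% and 81.6% for Clec3b and 76.8% and 76.3% for Mfap5. In stromal cells with 3 or more Cxcl13 UMIs each was seen in 92.1% to 100% of cells of a library.

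Against the other stromal cells of the same library (same rule, but no UMI of Pi16 or Dpp4; 101 and 54 cells in cold, 196 and 74 at room temperature), 39 of 40 listed adventitial progenitor genes were higher in Pi16/Dpp4 cells in all 4 libraries. Tppp3, a tubulin-binding protein of tendon and sheath cells, was the exception, with ratios on both sides of 0. The median log2 ratio of the list was 2.18 on the scale of log2(CPM + 5). This describes cells chosen on their own counts and has no test. The list was chosen with earlier results of these data known, and it holds several of the largest contrasts. The share of all genes higher in all 4 libraries is not given, so the count is no check of the label. The ratio was largest for Akr1c18, a progesterone-converting aldo-keto reductase, at 6.01, then for Aldh1a3, which makes retinoic acid, at 4.77, and for Smpd3, a neutral sphingomyelinase, at 4.69. Further down were Anxa3 at 3.92, Ackr3 (a scavenging receptor for Cxcl12) at 3.58 and Sema3c (a guidance cue) at 3.43; Ptgs2 (prostaglandin synthesis), outside the list, averaged 4.21 with a spread of 1.31 to 6.03 between libraries. Genes lower in Pi16/Dpp4 cells included Acta2 of smooth muscle at -6.26, with Sfrp5, a secreted Wnt inhibitor, at -4.74 and Cxcl14, a chemokine of other fat fibroblasts, at -4.53. The other stromal cells thus held transcripts of mural cells (pericytes and smooth muscle): 4 Pi16/Dpp4 cells had at least 2 UMIs of Rgs5, Myh11 and Acta2 together, against 33 other stromal cells.

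**Figure D2:**
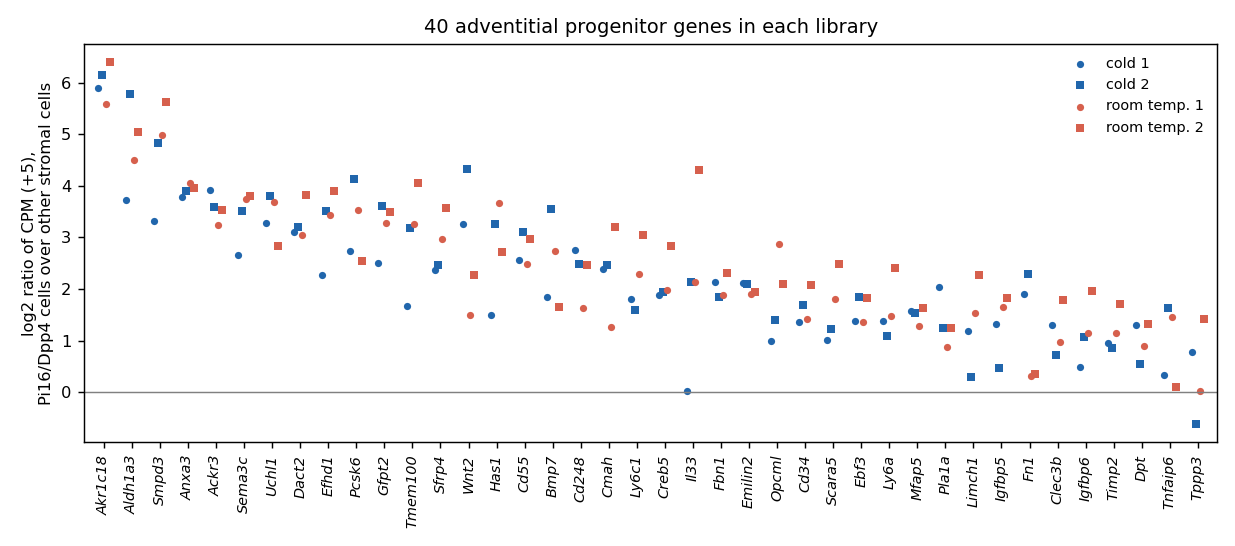
Log2 ratio of CPM (with 5 CPM added) in Pi16/Dpp4 cells over other stromal cells for 40 adventitial progenitor genes, 1 point per library (cold in blue, room temperature in red; replicate 1 as circles, replicate 2 as squares). Points lie above 0 in all 4 libraries for 39 genes, from a mean of 6.01 for Akr1c18 down to the mixed Tppp3 at the right.

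Pi16/Dpp4 cells differed among themselves in how firmly they met the rule. Both genes were seen in 85.0% and 92.5% of them in cold and in 90.1% and 82.6% at room temperature, and 132 and 178 cells in cold and 577 and 119 at room temperature had 7 or more UMIs of the pair. Cells with Pi16 alone (11.4% and 5% in cold, 6.997% and 13.2% at room temperature) were shallower, with median UMIs of 2358 and 2428 in cold and 5914 and 4326 at room temperature. They also differed from cells with both genes in level: Anxa3 had 682 CPM in Pi16-only cells and 1790.3 CPM in cells with both, and Mgp (matrix Gla protein, an inhibitor of calcification) had 1401 and 201 CPM, both pooled over libraries. Each held in all 4 libraries. At the threshold, cells with exactly 2 UMIs of the pair had 332 CPM of Anxa3 and 287 CPM of Col15a1, a basement membrane collagen of committed preadipocytes, against 204 and 510.2 CPM in cells with exactly 1 UMI. The whole population had 1685 CPM of Anxa3 and 45.1 CPM of Col15a1, and the other stromal cells had 103 and 525 CPM. Cells with exactly 2 UMIs numbered 13 and 5 in cold and 36 and 10 at room temperature, so their values per library rest on few cells. They lay between the populations in both pooled values. For Anxa3 this held in every library. For Col15a1 it held at room temperature and in neither cold library. There these cells had 0 and 410 CPM, against 15.3 and 13.1 CPM in the whole population and 160 and 231 CPM in other stromal cells. Other pooled values lay outside that range. Igfbp6 had 1510 CPM in cells with exactly 2 UMIs, below the 3692 CPM of the whole population and the 1674 CPM of other stromal cells. It was below other stromal cells in replicate 1 of each group and above them in replicate 2 of each. Col3a1 had 20205 CPM, above the 8298 CPM of the whole population and the 15348 CPM of other stromal cells, in every library.

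The rule genes were not alike in both groups. Pi16 had 2624 and 3245 CPM in cold against 3575 and 3522 CPM at room temperature, and Dpp4 had 489.5 and 611 CPM in cold against 540.3 and 433 CPM at room temperature. The ranges of Dpp4 overlapped, and Pi16 was lower in both cold libraries. Col1a2, a chain of type I collagen, had 3098 and 3161 CPM in cold against 6806 and 7206 CPM at room temperature, with no overlap. Dcn, Pdgfra and Cxcl13 were higher in both cold libraries. Dcn had 16368 and 13364 CPM in cold against 13235 and 10758 CPM at room temperature. Pdgfra had 425 and 424 CPM in cold against 393 and 319 CPM at room temperature. Cxcl13, which the rule limits, had 46.0 and 48.1 CPM in cold against 34.8 and 19.0 CPM at room temperature. Pi16 lies at chr17:29317680-29330593 and Dpp4 at chr2:62330073-62412231 (GRCm38).

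The cold comparison asked which transcripts of Pi16/Dpp4 cells differed after 24 h at 4 °C. Counts were summed over these cells in each library and compared with the edgeR quasi-likelihood test; a gene was called where its Benjamini-Hochberg adjusted p was under 0.05. Of the genes tested in each list, 10 of 16 collagens and 4 of 20 genes of the unfolded protein response fell, while 6 of 17 heat shock genes and 10 of 21 genes known to respond to glucocorticoids rose; the rest were not called. Of 9259 genes tested outside the rule, 151 were called (1.63%): 67 rose in cold (0.724%) and 84 fell (0.907%), and 1254 had an unadjusted p under 0.05. The median log2 fold change over all tested genes was 0.01. Without the Cxcl13 limit 275 genes were called, 124 higher and 151 lower, of which 130 were among the 151 called with it. Leaving out room-temperature replicate 1 gave 579 calls, 143 of them shared, and leaving out room-temperature replicate 2 gave 359, 148 of them shared; a lone room-temperature library is then assumed to vary like the cold ones. Median depth per cell was lower in both cold libraries; with every cell thinned to 3000 UMIs 98 genes were called, 77 of them among the 151. Among the genes named by rule, thinning ended the calls of Il33, Irf7, Ifit3, Col15a1, Gfpt2, Slit3, Pdia3, Cdkn1a, Rrs1, Cd74, H2-Eb1, Krt18 and Prlr, and DESeq2 did not call Igfbp3, Cyp26b1, Inmt, Cebpd, Fbn2, Prlr and Krt18. A minimum of 1 UMI of Pi16 and Dpp4 ended those of Ccdc3, Nrep, Il33, Ifit3, Igfbp5, Cd248, Mgp and Hspb1.

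**Figure D3:**
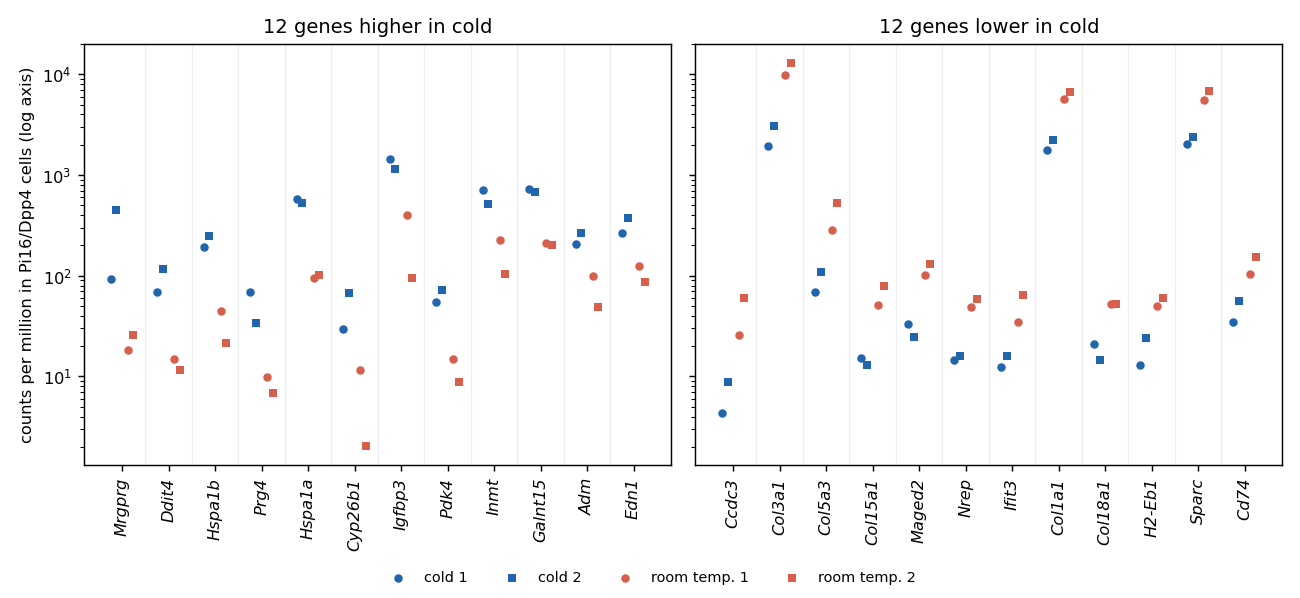
CPM in Pi16/Dpp4 cells (log axis) of the 12 called genes with the largest rise (left) and the 12 with the largest fall (right) in cold, among genes averaging at least 20 CPM. Each point is 1 library, cold in blue to the left of room temperature in red; cold and room temperature do not overlap for any of the 24 genes, which the choice of genes fixed.

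Matrix genes were many of the largest falls. Col3a1, the type III collagen of loose connective tissue (chr1:45311538-45349706), had 1963 and 3043 CPM in cold, against 9819 and 12931 CPM at room temperature, means of 2503 ± 764 and 11375 ± 2201 CPM (SD, n = 2 each). Both cold libraries lay far below both room-temperature libraries, a log2 fold change of -2.19 ± 0.21 (SE; edgeR adjusted p = 0.00179). Col1a1, the main chain of type I collagen (chr11:94936224-94953042), had 1782 and 2232 CPM in cold against 5747 and 6739 CPM at room temperature, a log2 fold change of -1.64 ± 0.16 (edgeR adjusted p = 0.00179). Of 17 listed collagen genes 16 were tested and 10 fell, none rose, and the list median was -0.99; 7 to 12 genes fell with 1 library left out, and 12 without the Cxcl13 limit. Col5a3, a regulatory chain of type V fibrils, fell by 2.18 on the log2 scale. Col15a1 fell by 2.12 and Col18a1, the parent of endostatin, fell by 1.55, while Col6a1, Col6a2 and Col6a3 of beaded filaments had log2 fold changes of -0.95, -1.25 and -0.90. Col14a1 (log2 -0.38, adjusted p = 0.335 by edgeR), Col16a1 and Col12a1 were not called, and Col4a4 was the sole tested member with a value above 0.

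Genes that act on collagen or sit beside it gave a mixed picture. Sparc, a collagen-binding matricellular protein, had 2038 and 2388 CPM in cold against 5604 and 6773 CPM at room temperature (log2 -1.48 ± 0.15, edgeR adjusted p = 0.00213), and Postn, periostin, had 604 and 509.9 CPM in cold against 1595 and 1352 CPM at room temperature (log2 -1.40 ± 0.16, edgeR adjusted p = 0.00444). Serpinh1, the collagen chaperone Hsp47 of the endoplasmic reticulum, had 605 and 503 CPM in cold against 1249 and 1518 CPM at room temperature (log2 -1.31 ± 0.16, edgeR adjusted p = 0.00506). In all 3 the cold libraries lay below the room-temperature ones with no overlap. Of 27 tested genes of elastic fibres and adventitial matrix 6 fell and 2 rose; Lum, a collagen-binding proteoglycan, fell by 1.21 and the microfibril gene Mfap2 fell by 0.87, while Mgp had 447 and 400.5 CPM in cold against 212 and 158 CPM at room temperature and rose by 1.18 (edgeR adjusted p = 0.0114, lost without the Cxcl13 limit). Prg4, the lubricant lubricin, had 69.3 and 34.3 CPM in cold against 9.91 and 6.77 CPM at room temperature and rose by 2.50 ± 0.35 (1.89 without cold replicate 1; edgeR adjusted p = 0.00961). Eln, the elastin core, had 196 and 671 CPM in cold against 613 and 1231 CPM at room temperature; it overlapped and was not called, nor were Mfap5, Tnxb or Timp2. Among 27 proteases, inhibitors and crosslinkers, Serpinh1 and Adam12, a membrane metalloprotease, fell and none rose; Mmp2, Mmp14, Lox and Loxl1 were not called. Without room-temperature replicate 1, 3 of these genes rose and 4 fell, and 4 genes of the elastic fibre list rose. Without the Cxcl13 limit 1 of the proteases and their partners rose and 3 fell, and 1 of the elastic fibre list rose and 6 fell.

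Heat shock genes, which encode cytosolic chaperones that rescue misfolded proteins, rose in cold in 6 of 17 tested members and fell in none (list median 0.39). Hspa1a, an inducible Hsp70 (chr17:34969190-34972156), had 577 and 532 CPM in cold against 95.1 and 102 CPM at room temperature, means of 555 ± 31.5 and 98.7 ± 5.09 CPM (SD, n = 2 each). Both cold libraries lay far above both room-temperature ones, a log2 fold change of 2.50 ± 0.15 (edgeR adjusted p = 8.99e-05), the smallest adjusted p of the comparison. Its near-identical neighbour Hspa1b had 193 and 246 CPM in cold against 44.2 and 21.7 CPM at room temperature (log2 2.59 ± 0.25, edgeR adjusted p = 0.00182; 3.35 without room-temperature replicate 1); reads of these 2 copies can be split between them, so their separate levels are uncertain. Dnajb1, an Hsp40 co-chaperone, rose by 1.44, Hsp90aa1, the inducible Hsp90, by 1.02, Hspb8, a small heat shock protein, by 0.83 and Hspb1, Hsp27, by 1.35. The call for Hspb1 was lost without cold replicate 2. The constitutive members Hspa8 (log2 0.39) and Hsp90ab1 (log2 -0.09) and the mitochondrial Hspd1 (log2 -0.05) and Hspe1 (log2 -0.10) were not called. Without the Cxcl13 limit 7 members rose.

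Heat shock factor 1 binds inverted repeats of GAA in the promoters of such genes. The 250 bases before the start of transcription were searched on both strands for GAANNTTC and TTCNNGAA, which 12.9% of 32536 mouse promoters hold (RefSeq, GRCm38.p6). Of 17 listed heat shock genes 13 had a promoter in the reference set, and 8 of these held a match at any of their annotated starts. The 12.9% counts single promoters, so the shares are not on the same scale. Hspd1 and Hspe1 face away from each other and share the same matched stretch. Among the genes that rose, Hspa1a, Hspa1b and Hspb1 held one and Hspb8 and Dnajb1 did not; among those not called, Hsph1, Hspd1, Hspe1, Dnaja1 and Dnajb4 held one, so a match was not particular to the genes that rose. The promoters of Hspa1a (chr17:34972157-34972406, minus strand) and Hspb1 (chr5:135887669-135887918, plus strand) are printed because they belong to called genes with a match, 5′ to 3′ with the matched letters in capitals; the match begins 104 bases before the start in Hspa1a, and in Hspb1 the 2 matches begin 117 and 97 bases before it.
Hspa1a: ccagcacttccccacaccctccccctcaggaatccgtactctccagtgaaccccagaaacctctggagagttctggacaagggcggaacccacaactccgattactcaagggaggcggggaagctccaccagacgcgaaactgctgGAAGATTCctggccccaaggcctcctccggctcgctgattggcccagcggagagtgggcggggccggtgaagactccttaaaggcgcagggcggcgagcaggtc
Hspb1: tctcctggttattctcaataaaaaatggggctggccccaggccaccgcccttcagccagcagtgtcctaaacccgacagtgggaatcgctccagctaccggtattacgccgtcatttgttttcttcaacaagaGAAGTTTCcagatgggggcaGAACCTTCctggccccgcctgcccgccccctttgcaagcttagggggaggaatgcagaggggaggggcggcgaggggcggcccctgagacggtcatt

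Chaperones of the endoplasmic reticulum, which fold secreted proteins such as collagen, went the other way. Of 20 tested genes of the unfolded protein response 4 fell and none rose, with a list median of -0.37. Hsp90b1, the Hsp90 of this compartment, had 341 and 334 CPM in cold against 687 and 736 CPM at room temperature, a log2 fold change of -1.07 ± 0.14 (edgeR adjusted p = 0.00612). Calr, the lectin chaperone calreticulin, had 417 and 329.7 CPM in cold against 657 and 815 CPM at room temperature (log2 -0.97 ± 0.17, edgeR adjusted p = 0.0259). Cold libraries lay below room-temperature libraries in both genes. The disulfide isomerases Pdia6 and Pdia3 had log2 fold changes of -0.87 and -0.68. Hspa5, the sentinel chaperone BiP, had 627 and 582 CPM in cold against 843 and 772 CPM at room temperature; the groups did not overlap, but it was not called (log2 -0.42, edgeR adjusted p = 0.218). The stress-induced transcription factors Atf4, Ddit3 and Xbp1 had log2 fold changes of 0.10, 0.13 and 0.11, with none called. Leaving out cold replicate 2 ended the calls of Calr and Pdia3 and left 2 of the 4, leaving out cold replicate 1 ended that of Pdia3, and leaving out room-temperature replicate 1 gave 7 genes that fell. Lifting the Cxcl13 limit gave 1 that rose and 6 that fell, and thinning to 3000 UMIs ended the call of Pdia3.

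The promoters of this list were searched for the endoplasmic reticulum stress response element, CCAAT and CCACG with 9 bases of any kind between them, on either strand, which 0.114% of the same 32536 promoters hold. It was found in 7 of 20 matched genes: Hsp90b1, Calr and Pdia6, which fell, and Hspa5, Canx, Dnajc3 and Creld2, which were not called; Pdia3, which fell, held none. The 3 promoters of genes that fell and hold it are shown in the same way, for Hsp90b1 (chr10:86705445-86705694, minus strand), which holds 2 matches, Calr (chr8:84846932-84847181, minus strand) and Pdia6 (chr12:17266339-17266588, plus strand). Matches are letters in a window and no measure of binding.
Hsp90b1: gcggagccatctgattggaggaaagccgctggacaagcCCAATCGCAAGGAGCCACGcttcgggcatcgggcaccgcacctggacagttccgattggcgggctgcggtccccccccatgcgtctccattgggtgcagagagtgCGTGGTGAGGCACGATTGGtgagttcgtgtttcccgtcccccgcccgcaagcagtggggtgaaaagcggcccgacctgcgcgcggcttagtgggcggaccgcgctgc
Calr: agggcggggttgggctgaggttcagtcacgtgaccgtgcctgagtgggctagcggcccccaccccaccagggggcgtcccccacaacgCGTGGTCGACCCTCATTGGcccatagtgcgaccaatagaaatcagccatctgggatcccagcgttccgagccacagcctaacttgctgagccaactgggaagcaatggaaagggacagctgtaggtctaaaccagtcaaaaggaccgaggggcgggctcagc
Pdia6: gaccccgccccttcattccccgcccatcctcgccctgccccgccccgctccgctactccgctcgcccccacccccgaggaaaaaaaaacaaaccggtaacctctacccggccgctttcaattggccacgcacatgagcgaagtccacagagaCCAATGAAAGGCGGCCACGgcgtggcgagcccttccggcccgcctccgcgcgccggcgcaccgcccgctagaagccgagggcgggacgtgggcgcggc

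Genes known to respond to glucocorticoids, the adrenal steroids released in stress, rose in 10 of 21 tested members and fell in none. The list median was 0.88, against 0.01 over all tested genes, and 20 of 21 members had a value above 0. Ddit4, an inhibitor of mTORC1, had 68.6 and 116 CPM in cold against 15 and 11.5 CPM at room temperature (log2 2.71 ± 0.26, edgeR adjusted p = 0.00179). Tsc22d3, the glucocorticoid-induced leucine zipper, had 543 and 476 CPM in cold against 217 and 169 CPM at room temperature (log2 1.39 ± 0.17, edgeR adjusted p = 0.00506). In both, every cold library was above every room-temperature library. Pdk4, a kinase that spares glucose by shutting pyruvate dehydrogenase, rose by 2.26 (2.86 without room-temperature replicate 1), Klf9 by 1.06, Glul, glutamine synthetase, by 1.31, Txnip by 1.33 and Zbtb16 by 0.87. Fkbp5, the classical feedback target, had 117 and 115 CPM in cold against 82.5 and 73.2 CPM at room temperature without overlap, but was not called (log2 0.56, edgeR adjusted p = 0.107); Mt2 and Nfkbia had log2 values of 0.01 and -0.01. Hsd11b1, which regenerates active glucocorticoid inside cells, had 171 and 162 CPM in cold against 73.1 and 34.5 CPM at room temperature (log2 1.51 ± 0.26, edgeR adjusted p = 0.0231; 2.28 without room-temperature replicate 1). The count of 10 became 16 without room-temperature replicate 1 and 13 without the Cxcl13 limit.

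Immediate early genes, switched on within minutes of many stimuli, including the handling of tissue, rose in 3 of 24 tested members: Jun, Jund and Dusp1. Jun, a subunit of AP-1, had 3384 and 2406 CPM in cold against 1430.0 and 965 CPM at room temperature (log2 1.27 ± 0.23, edgeR adjusted p = 0.0259), and Dusp1, a phosphatase that ends MAP kinase signals and is also on the glucocorticoid list, had 1838 and 1969.5 CPM in cold against 846 and 653 CPM at room temperature (log2 1.34 ± 0.16, edgeR adjusted p = 0.00506). Jund lost its call without cold replicate 1. Fos (log2 0.87), Egr1 (log2 0.48) and Nr4a1 (log2 0.53) were not called. The count for this list was unstable: 2 genes rose with cold replicate 1 left out and 8 with cold replicate 2 left out, against 16 and 6 when room-temperature replicate 1 or 2 was dropped. Cirbp, a cold-inducible RNA-binding gene, had 104 and 119.6 CPM in cold against 56.1 and 76.5 CPM at room temperature. Rbm3, another, had 438 and 395 CPM in cold against 249 and 285 CPM at room temperature. Both were higher in both cold libraries and stayed short of the threshold, at edgeR adjusted p = 0.0579 and 0.0605. Without the Cxcl13 limit 1 of the 4 listed genes of this kind rose. None of 14 tested clock genes was called by edgeR, and 6 rose without room-temperature replicate 1.

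**Figure D4:**
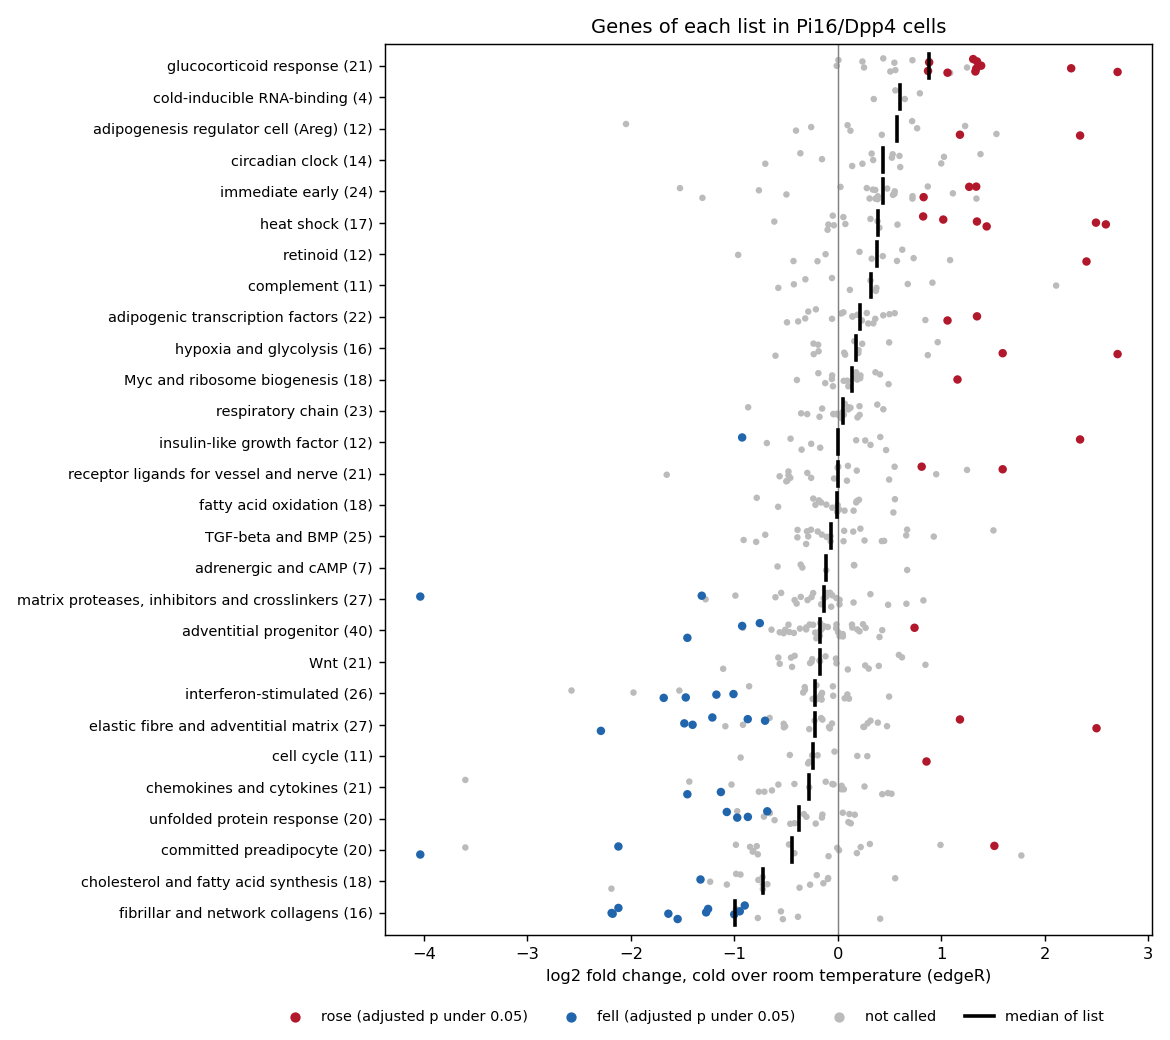
Log2 fold change in Pi16/Dpp4 cells, cold over room temperature, of every tested gene in 28 lists, the number tested in brackets and lists ordered by their median (black bar). Red points rose, blue points fell and grey points were not called by edgeR; glucocorticoid response genes lie highest, at a median of 0.88, and collagens lowest, at -0.99.

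The markers Igfbp6, Clec3b and Mfap5 were not called, and 4 of 40 adventitial progenitor genes were, against 1.63% of all tested genes. Igfbp6 had 3576 and 3829 CPM in cold against 3367 and 4983 CPM at room temperature, with both cold libraries between the room-temperature ones; its log2 fold change was -0.17 ± 0.18. Clec3b and Mfap5 had log2 fold changes of -0.13 ± 0.14 and -0.15 ± 0.16. Of the 40 listed genes 1 rose and 3 fell (list median -0.17, 27 values below 0, 12 at an unadjusted p under 0.05); without the Cxcl13 limit none rose and 3 fell. Il33, an alarmin cytokine held in these cells, had 49.6 and 61.3 CPM in cold against 113 and 201 CPM at room temperature, and both cold libraries were lower (log2 -1.45 ± 0.26, edgeR adjusted p = 0.0259; call lost with cells thinned to 3000 UMIs and with a minimum of 1 UMI of Pi16 and Dpp4). Igfbp5 had 1725 and 2232 CPM in cold against 3179 and 4334 CPM at room temperature (log2 -0.92, edgeR adjusted p = 0.0333), and Cd248, the glycoprotein endosialin, had 563 and 569 CPM in cold against 828 and 1088 CPM at room temperature (log2 -0.75, edgeR adjusted p = 0.0448). Gfpt2, of the hexosamine pathway, rose by 0.74. Without cold replicate 1 the calls of Igfbp5, Cd248 and Gfpt2 ended; Cd248 and Gfpt2 also lost theirs without cold replicate 2, and Cd248 without room-temperature replicate 2. Of this list 1 gene fell without cold replicate 1 and 9 fell without room-temperature replicate 1.

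Genes of the states next to the progenitors changed in both directions. Of 20 tested committed preadipocyte genes 1 rose and 2 fell, with a list median of -0.44 and 13 values below 0: Hsd11b1 rose, and Col15a1 and Adam12 fell. With no Cxcl13 limit 2 rose and 5 fell. Of this list 4 genes fell when cold replicate 1 was dropped, 7 when room-temperature replicate 1 was and 4 when its replicate 2 was; 4 and 3 rose when these room-temperature libraries were left out in turn, and 2 when either cold library was. Adam12 had 1.46 and 0.729 CPM in cold against 15.3 and 25.7 CPM at room temperature, very few UMIs in cold, so its log2 fold change of -4.04 ± 0.59 is imprecise (-4.62 without cold replicate 1; edgeR adjusted p = 0.0107). Pparg, the master regulator of adipocyte formation, had 5.11 and 2.92 CPM in cold against 6.05 and 4.06 CPM at room temperature, too few counts to be tested and within the level that free RNA from other cells could give. Icam1 (log2 0.31), Lpl (log2 -0.47) and Fabp4 (log2 0.22, at a level free RNA could give) were not called. Of 22 tested adipogenic transcription factors, Klf9 and Cebpd rose, the second with 1554 and 1441 CPM in cold against 779 and 385 CPM at room temperature (log2 1.35 ± 0.27, edgeR adjusted p = 0.0387; 1.97 without room-temperature replicate 1, and not called without the Cxcl13 limit); 7 of these factors rose without room-temperature replicate 1. Ebf2 (log2 -0.21), Zfp423 (log2 -0.31) and Gata6 (log2 0.30), regulators linked to beige and brown fat, were not called. Of 12 tested genes of the Areg state, fibroblasts that restrain adipogenesis, Igfbp3 and Mgp rose (list median 0.57, 9 values above 0), with 7 that rose without cold replicate 2 and 5 without either room-temperature library; F3, the marker that defines them, had 47.4 and 11.7 CPM in cold against 19 and 13.5 CPM at room temperature.

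Secreted signals and their receptors changed gene by gene. Igfbp3, a carrier of insulin-like growth factors, had 1439 and 1158 CPM in cold against 399 and 94.8 CPM at room temperature; both cold libraries were higher, and the room-temperature libraries lay far apart (log2 2.34 ± 0.47, edgeR adjusted p = 0.0396; 3.79 with room-temperature replicate 1 left out, 1.69 with replicate 2 of that group left out). Its call was lost with DESeq2, with Cxcl13 at 0 UMIs and with at least 2 UMIs of Pi16 and Dpp4 per 10000. Adm, the vasodilator adrenomedullin, had 209 and 267 CPM in cold against 99.3 and 48.8 CPM at room temperature (log2 1.60 ± 0.26, edgeR adjusted p = 0.0192; 2.30 without room-temperature replicate 1). Edn1, the vasoconstrictor endothelin 1, had 267 and 376 CPM in cold against 125 and 86 CPM at room temperature (log2 1.57 ± 0.21, edgeR adjusted p = 0.00735). Both vessel signals were higher in every cold library. Slit3, a guidance cue, rose by 0.81, and lost its call without cold replicate 1. Cyp26b1, which degrades retinoic acid, had 29.9 and 67.1 CPM in cold against 11.6 and 2.03 CPM at room temperature (log2 2.40 ± 0.46, edgeR adjusted p = 0.0333); its value was 1.75 and not called without cold replicate 2, and 4.53 without room-temperature replicate 1. Aldh1a3 and Rarb, which make and receive the same ligand, were not called; of 12 tested retinoid genes 1 rose, and 5 without room-temperature replicate 1.

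The largest log2 rise among the called genes belonged to Mrgprg, a Mas-related G protein-coupled receptor (chr7:143763710-143766993), with 92.7 and 454 CPM in cold against 18.3 and 25.7 CPM at room temperature. Cold replicate 2 stood far above cold replicate 1, which was itself above both room-temperature libraries. The log2 fold change was 3.70 ± 0.59 (edgeR adjusted p = 0.0171), 4.42 without cold replicate 1 and 2.19 without cold replicate 2. Galnt15, which starts O-linked sugar chains, was more even, with 727 and 673 CPM in cold against 211 and 202 CPM at room temperature (log2 1.76 ± 0.14, edgeR adjusted p = 0.000926). Inmt, a methyltransferase of small amines, had 708 and 516 CPM in cold against 228 and 104 CPM at room temperature (log2 1.84 ± 0.31, edgeR adjusted p = 0.0201; 2.57 without room-temperature replicate 1). Among the falls, Ccdc3, a secreted protein of fat and vessels, had 4.38 and 8.75 CPM in cold against 25.9 and 60.3 CPM at room temperature (log2 -2.54 ± 0.51, edgeR adjusted p = 0.0387; -3.17 without room-temperature replicate 1). Maged2, of the MAGE family, had 32.8 and 24.8 CPM in cold against 101 and 131 CPM at room temperature (log2 -1.98 ± 0.21, edgeR adjusted p = 0.00241). Nrep had 14.6 and 16 CPM in cold against 48.7 and 58.9 CPM at room temperature (log2 -1.78, edgeR adjusted p = 0.00506).

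Inflammatory genes fell in a few members. Of 21 tested chemokine and cytokine genes 2 fell and none rose: Ccl2, which draws monocytes, had 199 and 333 CPM in cold against 542 and 621 CPM at room temperature (log2 -1.13 ± 0.20, edgeR adjusted p = 0.0282, lost without cold replicate 1 and without the Cxcl13 limit), and Il33 was the other. The count that fell was 4 without room-temperature replicate 1 and 7 without replicate 2 of that group. Cxcl12 overlapped between groups, at 202 and 105 CPM in cold against 175 and 157 CPM at room temperature, and Ccl11, eotaxin, was higher in both cold libraries but not called (log2 0.52, edgeR adjusted p = 0.106). Of 26 tested interferon-stimulated genes 4 fell and none rose. Irf7, a transcription factor of the interferon loop, had 54.7 and 54 CPM in cold against 127 and 180.2 CPM at room temperature (log2 -1.47 ± 0.19, edgeR adjusted p = 0.007). Ifi27l2a had 943 and 945 CPM in cold against 1765 and 2509 CPM at room temperature (log2 -1.17 ± 0.17, edgeR adjusted p = 0.0107); Bst2, tetherin, and Ifit3 had log2 fold changes of -1.01 and -1.68. Of the interferon list 9 genes fell without room-temperature replicate 1, 7 without its replicate 2, 6 without either cold library and 7 without the Cxcl13 limit. The calls of Irf7 and Ifit3 were lost with cells thinned to 3000 UMIs.

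Transcripts of other cell types moved with these results in part. The 11 macrophage markers summed to 275 and 156 CPM in Pi16/Dpp4 cells in cold, against 505 and 389 CPM at room temperature, with no marker at 0 in any library. Of 10 tested 1 fell, and 6 without cold replicate 1 or 7 without room-temperature replicate 2. The antigen-presentation genes Cd74 and H2-Eb1, with log2 fold changes of -1.48 and -1.52, lay under 5% of their level in immune cells, a level free RNA could give. The 11 luminal epithelial markers summed to 219 and 208 CPM in cold, against 133 and 131 CPM at room temperature, and epithelial cells were 21.4% and 19.3% of kept cells in cold and 10.3% and 9.38% at room temperature. Krt18 and Prlr, which rose by 1.15 and 1.31, lay under 5% of their epithelial level. In all, 9 of the 151 called genes were at such levels; the part of free RNA in these results was not tested. Lymphocyte markers summed to 22.6 and 64.2 CPM in cold against 34.4 and 78.6 CPM at room temperature, endothelial to 37.9 and 22.6 CPM in cold against 25.5 and 33.2 CPM at room temperature, and mural to 56.2 and 37.9 CPM in cold against 71.2 and 37.9 CPM at room temperature, all overlapping. Basal epithelial markers were at 5.11 CPM in each cold library and 27.4 and 12.2 CPM at room temperature, adipocyte markers at 4.38 CPM or less in every library, and 4 or 5 of 6 mesothelial markers at 0.

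Energy metabolism changed in few genes. None of 23 tested respiratory chain genes (list median 0.05) and none of 18 tested genes of fatty acid oxidation (list median -0.00249) was called. Of 18 tested genes of cholesterol and fatty acid synthesis, Scd2, a stearoyl-CoA desaturase, fell, with 74.4 and 90.5 CPM in cold against 159.9 and 262 CPM at room temperature (log2 -1.33 ± 0.22, edgeR adjusted p = 0.0203). In that list 17 members had a value below 0 and the median was -0.72; 10 members fell without room-temperature replicate 1, so the count depends on that library. Of 16 tested genes of hypoxia and glycolysis Ddit4 and Adm rose, while Vegfa (log2 0.50), Ldha (log2 0.07) and Pgk1 (log2 0.24) were not called. No gene was called among 25 of TGF-beta and BMP signalling, 21 of the Wnt pathway, 11 of complement and 7 of adrenergic signalling; 12 other adrenergic genes had too few counts to test. Without room-temperature replicate 1, 5 genes rose and 3 fell in the TGF-beta and BMP list, 3 rose and 1 fell in the Wnt list and 5 rose and 1 fell in the complement list. With no Cxcl13 limit 1 gene rose in the TGF-beta and BMP list and 1 in the adrenergic list, and 1 fell in the Wnt list. Few cells showed a cycling transcript: Mki67 had a UMI in 0.599% and 0% of Pi16/Dpp4 cells in cold and in 0.875% and 0% at room temperature, against 5.01% and 8.74% of immune cells in cold and 8.35% and 9.24% at room temperature. Cdkn1a, a brake on the cell cycle, rose by 0.86 and lost its call without cold replicate 1.

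The last comparison asked whether cold acted on Pi16/Dpp4 cells otherwise than on other stromal cells of the same libraries. The difference between the 2 cold effects was tested for 10230 genes outside the rule, with the library as block, and 1 was called by edgeR (0.00978%), with 690 at an unadjusted p under 0.05. Fn1, fibronectin, the adhesive glycoprotein on which cells assemble collagen (chr1:71585520-71653200), had 2877 and 3679 CPM in cold against 4668 and 4737 CPM at room temperature in Pi16/Dpp4 cells. In other stromal cells it had 769 and 749.8 CPM in cold and 3745 and 3708 CPM at room temperature. Fn1 was thus lower in cold in both populations, with a log2 fold change of -0.52 (not called, edgeR adjusted p = 0.13) in Pi16/Dpp4 cells and -2.18 in the others, and the difference of 1.65 ± 0.17 (SE) was past the threshold (edgeR adjusted p = 0.0375). It stayed past it when the 33 other stromal cells with mural UMIs were left out (1.68, edgeR adjusted p = 0.00218). It was not past it without room-temperature replicate 1 (1.61, edgeR adjusted p = 0.0846), without the Cxcl13 limit (1.501, edgeR adjusted p = 0.0884) or with cells thinned to 3000 UMIs (1.42, edgeR adjusted p = 0.107).

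**Figure D5:**
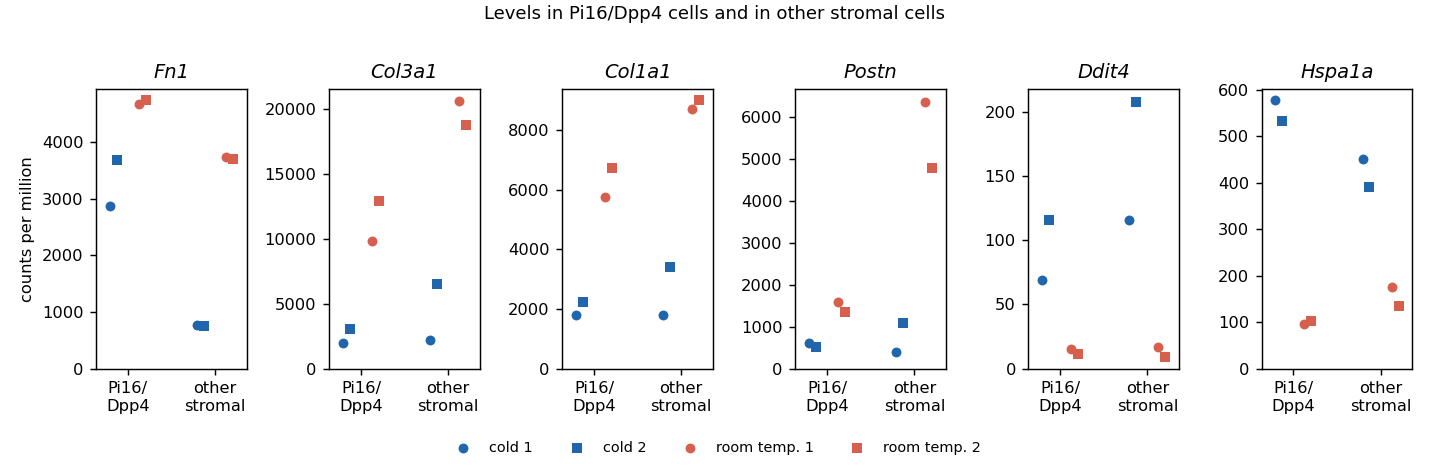
CPM per library of 6 genes in Pi16/Dpp4 cells (left in each panel) and in other stromal cells (right), cold in blue and room temperature in red, each axis starting at 0. Fn1 in cold had 2877 and 3679 CPM in Pi16/Dpp4 cells and 769 and 750 CPM in other stromal cells. All 6 genes separate by temperature in both populations.

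For the other genes the difference between populations was not past the threshold, which does not show that they responded alike. Col3a1 had a log2 fold change of -2.19 in Pi16/Dpp4 cells and -2.10 in other stromal cells, Col1a1 -1.64 and -1.67, and Sparc -1.48 and -1.57. Ddit4 had 2.71 and 3.57, and Tsc22d3 1.39 and 1.59. Postn, with -1.40 in Pi16/Dpp4 cells and -2.83 in the others, and Wnt2, a ligand of the progenitors, with -0.56 and -3.11, had larger gaps that did not reach it (edgeR adjusted p = 0.49 and 0.444). With the mural cells left out, 10 differences were called. They included Cdkn1c, a cell cycle inhibitor of quiescent cells, at 1.79 ± 0.23 (edgeR adjusted p = 0.00733), which had 252 and 239 CPM in cold against 234 and 194 CPM at room temperature in Pi16/Dpp4 cells. In the other stromal cells it had 188 and 185 CPM in cold against 647 and 569 CPM at room temperature, so the cold libraries were lower in those cells and not in Pi16/Dpp4 cells. Cxcl12 had a difference of -1.59 ± 0.23 there (edgeR adjusted p = 0.0189), with 202 and 105 CPM in cold against 175 and 157 CPM at room temperature in Pi16/Dpp4 cells and 1451 and 768 CPM in cold against 526 and 345 CPM at room temperature in the other stromal cells. That selection was chosen after the data were seen, and neither gene was called with all other stromal cells under the full rule. Cdkn1c was also called with other stromal cells of 0 or 1 UMI (1.73, edgeR adjusted p = 0.029) and without the Cxcl13 limit (2.04, edgeR adjusted p = 0.0357).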

How the data were processed

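Per the submitters' processing notes, reads were handled with Cell Ranger 3.0.2 and Seurat on mm10 and GRCm38. The authors deposited unnormalized UMI counts for 31053 genes per barcode and library; no source at hand names the annotation release. Cells were selected by the rule in the opening, and 21 Pi16/Dpp4 cells that Scrublet (scanpy 1.11.5, Python 3.11.15) marked as doublets were kept and left out in an alternative. Counts were summed per library (1370699 to 5952438 UMIs) and tested with edgeR 4.0.16 (R 4.3.3; TMM, filterByExpr, quasi-likelihood F test, Benjamini-Hochberg threshold 0.05). The rule genes stayed in the fit and in the adjustment, and were left out when called genes were counted. CPM were computed from the same sums.

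The members and the 37 gene lists were chosen with earlier results of these data known. Named were the 12 called genes with the largest rise and the 12 with the largest fall among those averaging 20 CPM or more over the 4 libraries with no overlap between groups, up to 4 such called members per list, called differences, genes fixed by name and the strongest contrasts to other stroma. Genes known only by prediction, and those of ribosome or mitochondrial genome, were not named. Other list members are examples chosen after their values were seen. On simulated counts the cold test on 9052 genes recovered 64 of 100 changes of log2 size 1 and 96 of 100 of size 2; the difference test on 9177 genes recovered 13 and 67 of 100. No unchanged gene was called in either. The simulation gave every gene the common dispersion of the Pi16/Dpp4 sums, 0.0142, in other stromal cells too. It changed only genes with at least 100 UMIs, so recovery in the data may be lower. DESeq2 1.42.0, other thresholds, thinning and leaving out libraries were alternatives; removing the Cxcl13 limit and leaving out mural cells were chosen after seeing the data. Positions of the 86 named genes come from GENCODE on GRCm38.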

Additional observations from a re-analysis of the deposited data

Results flagged for a closer look

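Fn1 was picked out because its cold effect in Pi16/Dpp4 cells differed from that in other stromal cells by 1.65 on the log2 scale (SE 0.17, adjusted p = 0.0375 by edgeR). It was lower in cold in both populations, with 2877 and 3679 CPM in cold against 4668 and 4737 CPM at room temperature in Pi16/Dpp4 cells. In other stromal cells it had 769 and 750 CPM in cold against 3745 and 3708 CPM at room temperature. The direction was the same, but the call was lost without room-temperature replicate 1 (1.61, edgeR adjusted p = 0.0846), without the Cxcl13 limit (1.501, edgeR adjusted p = 0.0884) and with cells thinned to 3000 UMIs (1.42, edgeR adjusted p = 0.107).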

How the results depend on the processing

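The count of 151 genes called in Pi16/Dpp4 cells (67 rose, 84 fell) became 275 (124 rose, 151 fell) without the Cxcl13 limit, 544 (226 rose, 318 fell) without the low-count filter and 98 (49 fell) with cells thinned to 3000 UMIs. With a replicate block it became 604 (281 rose, 323 fell) and held all 151; the numbers share no stated origin, and deviations of same-numbered libraries correlated at 0.0545 over 9265 genes in 2 pairs, so they were not taken as pairs. Leaving out 1 library gave 163 to 579 calls, 70 to 293 that rose and 82 to 286 that fell. DESeq2 called 138 genes, 109 of them shared, and RLE scaling 152. Of the 56 named called genes, 28 were called under every setting run, and none changed direction. For the difference from other stromal cells, the count of 1 became 149 without the low-count filter, 3 with other stromal cells of 0 or 1 UMI, 10 without mural cells and 0 with thinned cells (edgeR, 331 at an unadjusted p under 0.05); leaving out 1 library gave 1 to 43. The cold minus room temperature share of stromal cells was 8.91 points without the Cxcl13 limit, and -28.1 to -3.51 points with 1 library left out; the share of kept cells ranged over -7.20 to 0.76 points, above 0 without room-temperature replicate 1. The cause of these shifts was not tested. Counts per library limit genes of low level, and 2 libraries a group limit every test.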
